A study of Arabidopsis thaliana with 12 samples.

Results

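Thylakoids, the photosynthetic membranes of the chloroplast, carry protein complexes whose subunits and cofactors are put together by dedicated assembly factors that are not part of the finished complex. Other proteins shape the membrane itself, which in plants is stacked into grana, where photosystem II is concentrated, and unstacked lamellae, where photosystem I is concentrated. The proteins described here are encoded in the nucleus, made in the cytosol and imported into the chloroplast.

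Transcripts of 5 such genes were examined on arrays of wild-type Arabidopsis thaliana of the Columbia 0 ecotype, the standard laboratory accession. They were PSB27 (AT1G03600), a lumen protein that takes part in the assembly and repair of photosystem II, PYG7 (AT1G22700), a tetratricopeptide repeat protein needed for photosystem I to accumulate, CCB3 (AT5G36120), which helps attach a haem covalently to cytochrome b6, RIQ2 (AT1G74730), a membrane protein that affects grana stacking and the organisation of the light-harvesting antenna, and PPD3 (AT1G76450), a PsbP-domain protein of the thylakoid lumen. Each gene was taken where the platform annotation gave it as the only gene of a probe, and the 5 genes, of 691 with a probe of their own, had 1 such probe each among 692 single-gene probes and 3439 probes in all. By their locus names 4 of the genes lie on chromosome 1 and CCB3 lies on chromosome 5. The genes were picked with their dark and light values known, so those values are given below as a description and no p-value is given for them.

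The groups were 6 arrays of plants kept in the dark overnight and 6 arrays of plants given 1 h of light after such a night, with total RNA from both. The labels do not name the tissue, the age of the plants or whether replicates were separate plants, so the p-values below cover the spread among the arrays as deposited, part of which may be technical. The number of arrays limits the precision. With no group held in the dark for the extra hour, light and time after the night cannot be told apart. None of 13 marker loci for leaf or root cells was on a single-gene probe, so the tissue was not checked. Fewer cells of a type and less RNA per cell cannot be told apart in such samples.

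Levels are scaled intensities, which are the deposited values after quantile normalization, on a relative linear scale that ends at 100. Levels of different probes are not compared. Columns with consecutive replicate numbers (1 and 2, 3 and 4, 5 and 6) of a group were alike, with a median correlation across probes of 0.870 against 0.842 for other columns of a group. Means are therefore given ± SD over 3 means of consecutive numbers (n = 3), with the single arrays beside them. Arrays 1 and 2 of both groups also stood apart from arrays 3 to 6 on the second principal component, which held 13.1% of the variance, and log2 changes are therefore also given without them. Without them 1011 of the 2966 probes tested passed an adjusted p of 0.05 in limma, against 1198 with them.

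Of the 5 genes, 2 were higher on average in light, 2 were lower and 1 was near equal. RIQ2 and CCB3 were higher after 1 h of light, by 1.99-fold and 1.55-fold. PPD3 and PYG7 were lower, with dark levels 1.86 and 1.75 times those in light. PSB27 had a fitted log2 difference of 0.0057 with a wide SE of 0.67, and its level differed several-fold between replicate numbers. In the fit across all probes 4 of the 5 genes passed an adjusted p of 0.05 (limma, Benjamini-Hochberg over 2966 probes), beside 40.4% of all probes, 19.9% higher and 20.5% lower in light. With consecutive numbers averaged the count was also 4, beside 27.4% of all probes. With those pairs as a random block it was 2, beside 1028 of 2966 probes, as PYG7 and CCB3 did not pass. Nothing is read from these shares, since the genes were chosen from the same contrast. The groups of 6 did not overlap for RIQ2 and PPD3, which was so for 26.6% of all probes, 13.2% higher and 13.4% lower in light.

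**Figure D1:**
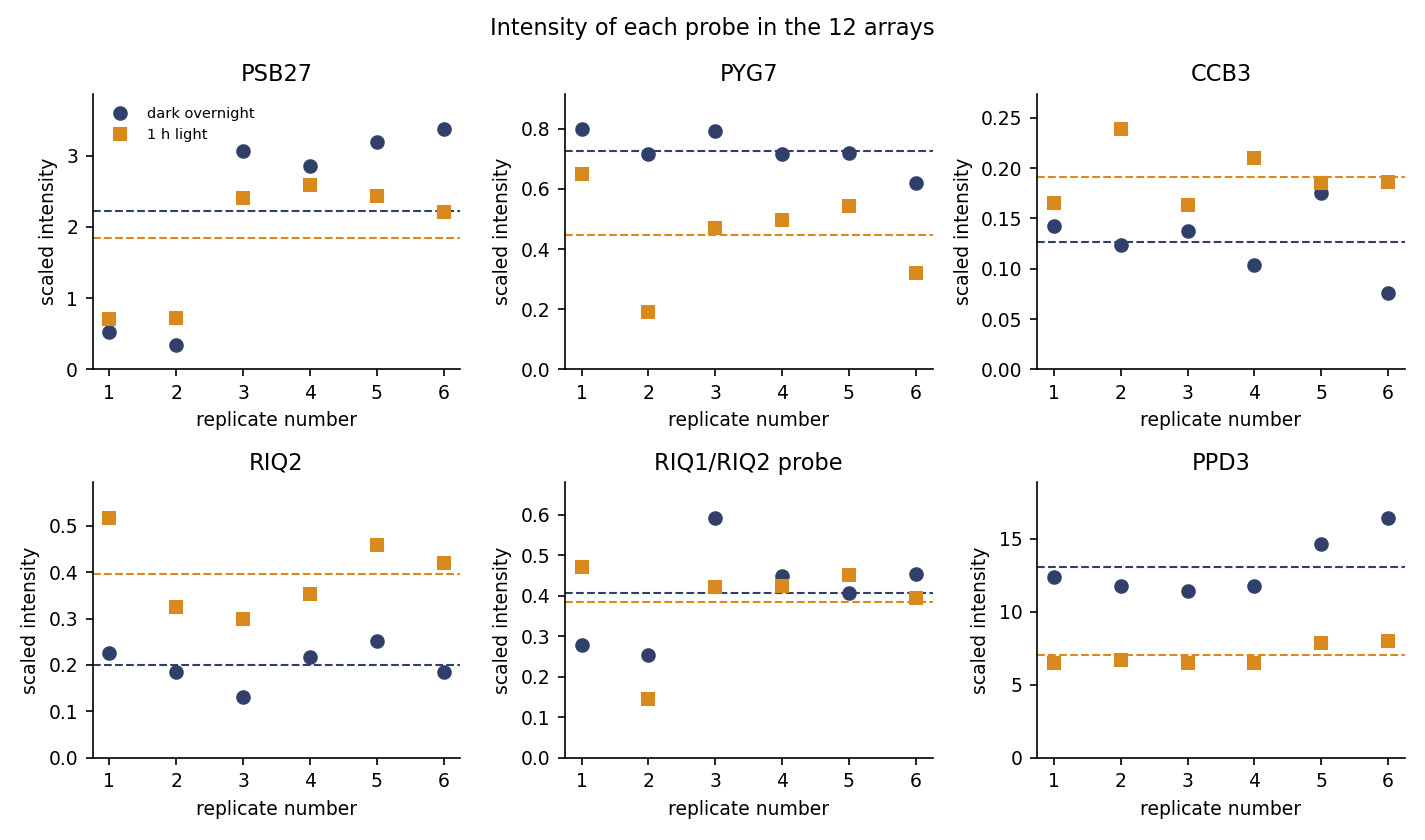
Scaled intensity (linear axis from 0) of the single-gene probes of the 5 genes and of the probe shared by RIQ1 and RIQ2, plotted by replicate number, with dark arrays as blue circles, light arrays as orange squares and dashed lines at the means of 6 arrays. RIQ2 and PPD3 have no overlap between groups, and PSB27 lies between 0.341 and 0.723 in arrays 1 and 2 of both groups.

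Photosystem II was represented by PSB27, whose intensity fell into separate ranges by replicate number. In the dark it was 0.522 and 0.341 in arrays 1 and 2, 3.06 and 2.86 in arrays 3 and 4, and 3.19 and 3.37 in arrays 5 and 6. In light it was 0.708 and 0.723 in arrays 1 and 2, 2.41 and 2.59 in arrays 3 and 4, and 2.43 and 2.21 in arrays 5 and 6. Arrays 1 and 2 were the low ones in both groups, and no array lay in between. The step between arrays 1 and 2 and arrays 3 to 6 was 7.38-fold in the dark and 3.36-fold in light.

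The mean of PSB27 was 2.22 ± 1.56 in the dark and 1.84 ± 0.98 in light (n = 3), and the groups overlapped. The linear mean was thus higher in the dark while the mean of log2 values was almost equal. Within arrays 1 and 2 light was above dark by 0.76 on the log2 scale, whereas within arrays 3 and 4 and within arrays 5 and 6 the difference was -0.25 and -0.50. Light was lower in 4 of the 6 replicate numbers. Without arrays 1 and 2 the fitted log2 change was -0.37, against 0.0057 with them, and PSB27 was then past the threshold as lower in light. Of the 5 genes 4 passed in that fit, 1 higher and 3 lower, since CCB3 did not. Beside them 1011 of all 2966 probes passed, 497 higher and 514 lower. Nothing is read from these calls, since the genes were chosen with their values known.

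The same step, set after the values of PSB27 were seen as more than 2-fold without overlap in both groups, was held by 12 of 2966 probes (0.405%), all higher in arrays 3 to 6. Of these 12, 3 were never listed at 0 in any array, and 3 were single-gene probes, namely PSB27, AT5G19050 and AT2G29180. AT5G19050 differed 16.9-fold in the dark and 16.8-fold in light, and AT2G29180 differed 6.44-fold and 22.5-fold. AT5G19050 was listed at 0 in 2 arrays, so the size of its step depends in part on the floor for low values. By the mean step of both groups, highest first, PSB27 ranked 48 of the 2966 probes and 6 of the 2450 never listed at 0. The median size of the step over all probes was 0.24 on the log2 scale, against 2.32 for PSB27. The other members showed little of it, with steps from -0.14 to 0.14. The count of such probes depended on the scaling and the floor, at 20 with arrays centred on the 75th percentile and 5 with the floor at the 25% quantile. The step of PSB27 ran from 2.86 to 2.97 in the dark and from 1.68 to 1.80 in light over the scalings and floors tried.

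**Figure D2:**
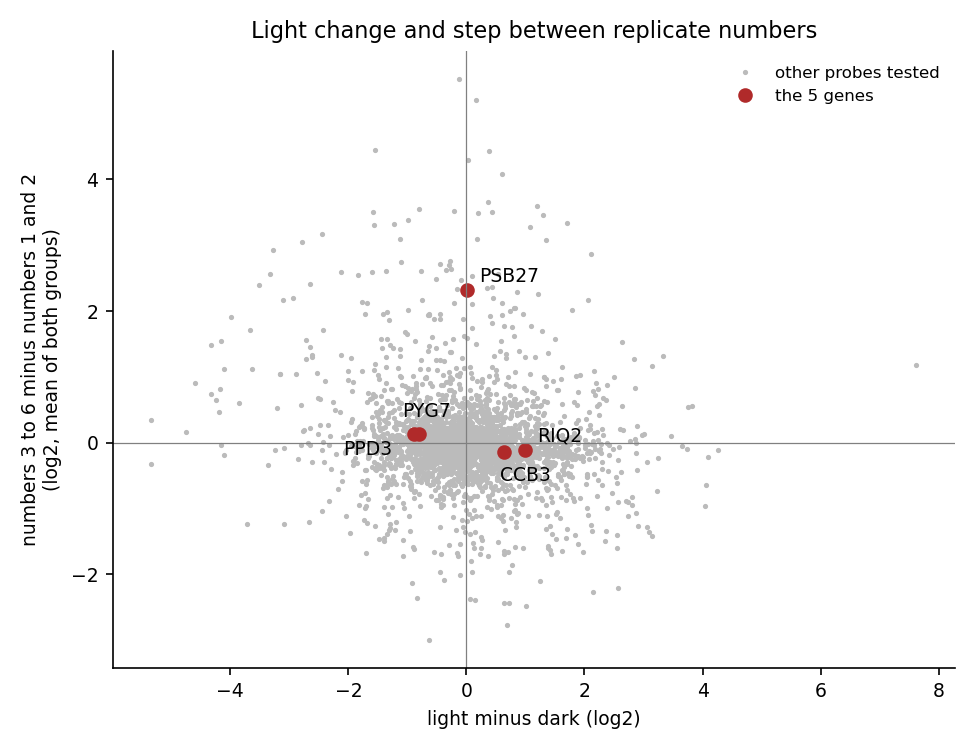
Fitted log2 change from dark to light (x axis) against the log2 difference between replicate numbers 3 to 6 and numbers 1 and 2, averaged over both groups (y axis), for the 2966 probes tested (grey) and the 5 genes (red). PSB27 sits at 0.0057 on the x axis and 2.32 on the y axis, while the other members lie between -0.14 and 0.14 on the y axis.

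Arabidopsis has a second Psb27 protein, LPA19, which acts in the processing of the D1 reaction centre protein of photosystem II. LPA19 was dim, at 0 to 0.138 with a median of 0.082 in the dark and at 0.089 to 0.167 with a median of 0.108 in light. It was listed at 0 in dark array 1, and its groups overlapped. Between arrays 1 and 2 and arrays 3 to 6 it differed 3.76-fold in the dark, where array 1 sets the value, and 1.19-fold in light. Its log2 change was 1.04 (SE 0.61) and did not pass in limma (adjusted p = 0.20). Without dark array 1 it was 0.43 and without arrays 1 and 2 of both groups 0.49, so that the array listed at 0 set much of its size, and centred on the 75th percentile it was 1.51 and passed (limma, adjusted p = 0.049).

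RBD1 (AT1G54500), a rubredoxin needed for photosystem II to accumulate, was the third photosystem II assembly gene with a probe of its own. It lay between 0.191 and 0.371 with a median of 0.307 in the dark, and between 0.586 and 0.969 with a median of 0.876 in light. Every light array was above every dark array. The mean went from 0.298 ± 0.067 to 0.815 ± 0.191 (n = 3), a rise of 1.46 on the log2 scale. In the main fit, which took the arrays singly, its SE was 0.20 (limma, adjusted p = 9.9e-05). With consecutive numbers averaged the adjusted p was 0.014 (limma). The rise was seen in 6 of 6 replicate numbers, from 2.21-fold to 3.48-fold, and without arrays 1 and 2 it was 1.54 on the log2 scale (limma, adjusted p = 0.0028).

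Photosystem I was represented by PYG7. In the dark its 6 arrays lay close together, from 0.618 to 0.798 with a median of 0.718, and in light they spread from 0.190 to 0.650 with a median of 0.483. Light array 1 was above the lowest dark array, dark array 6, so the groups overlapped by that pair of arrays. In the deposited values, before normalization, they did not overlap, at 0.609 to 1.05 in the dark and 0.176 to 0.525 in light. Light columns were lower in general there, with a median log2 change of -0.21 over all probes tested. In that fit 879 probes passed as lower and 423 as higher. The share of all probes without overlap was taken from the scaled values only.

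PYG7 averaged 0.726 ± 0.050 in the dark and 0.445 ± 0.034 in light (n = 3). The SD over single light arrays was 0.165, far above that over pair means, because the arrays of a pair differed more than the pair means did. The fitted log2 change was -0.81 (SE 0.26). Light was lower in all 6 replicate numbers, with light to dark ratios between 0.265 and 0.815 and a median of 0.641. The lowest ratio was that of number 2, where the light array was at 0.190, and without that array the log2 change was -0.58. Without arrays 1 and 2 of both groups it was -0.66, and in the values as deposited it was -1.196.

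The cytochrome b6f complex, which passes electrons between the photosystems, was represented by CCB3. In the dark it lay between 0.076 and 0.175 with a median of 0.131, and in light between 0.163 and 0.239 with a median of 0.186. Dark array 5 reached into the light range, and the other 5 dark arrays lay below every light array. The mean was 0.126 ± 0.0062 in the dark and 0.191 ± 0.0090 in light (n = 3), with SDs over single arrays of 0.034 and 0.029.

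The fitted log2 change of CCB3 was 0.63 (SE 0.19), and light was higher in 6 of 6 replicate numbers. The size of the difference varied within each consecutive pair. It was 0.21, 0.25 and 0.084 on the log2 scale in numbers 1, 3 and 5, and 0.95, 1.02 and 1.29 in numbers 2, 4 and 6. The average over a pair was nearly the same each time, at 0.58, 0.63 and 0.69. The SDs over pair means given above are of the levels in each group. Those pair means were 0.1331, 0.1207 and 0.1255 in the dark and 0.2018, 0.1866 and 0.1857 in light. Without arrays 1 and 2 the log2 change was 0.66. With the floor for low values at the 25% quantile of positive intensities it was 0.34, and centred on the 75th percentile it was 1.007. CCS1, which acts in haem attachment to c-type cytochromes, was also on a single-gene probe but was listed at 0 in 5 of 6 dark and 6 of 6 light arrays and was not tested.

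Grana organisation was represented by RIQ2. It lay between 0.132 and 0.251 with a median of 0.201 in the dark, and between 0.299 and 0.516 with a median of 0.387 in light. All 6 light arrays were above all 6 dark arrays, in the scaled and in the deposited values. The mean went from 0.199 ± 0.022 to 0.395 ± 0.060 (n = 3), with a fitted log2 change of 0.99 (SE 0.18). Light was higher in 6 of 6 replicate numbers, with ratios of 1.63 to 2.29 and a median of 2.03. Without arrays 1 and 2 the log2 change was 0.98.

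A second probe was annotated to both RIQ2 and its paralogue RIQ1 (AT5G08050), and its values were unlike those of the probe for RIQ2 alone. It lay between 0.255 and 0.592 with a median of 0.428 in the dark, and between 0.146 and 0.470 with a median of 0.423 in light. The ranges overlapped from 0.255 to 0.470. The log2 change was -0.11 (SE 0.31, limma adjusted p = 0.80), with light lower in 4 of 6 replicate numbers. Light array 2 was the lowest array, and without it the log2 change was 0.15. In the dark, arrays 1 and 2 were the lowest, while in light array 1 was the highest of the 6. The log2 change was -0.16 without arrays 1 and 2 of both groups. Over the 12 arrays the correlation between these probes was -0.061 (Pearson). The annotation does not say how much of the signal of the shared probe comes from either gene.

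**Figure D3:**
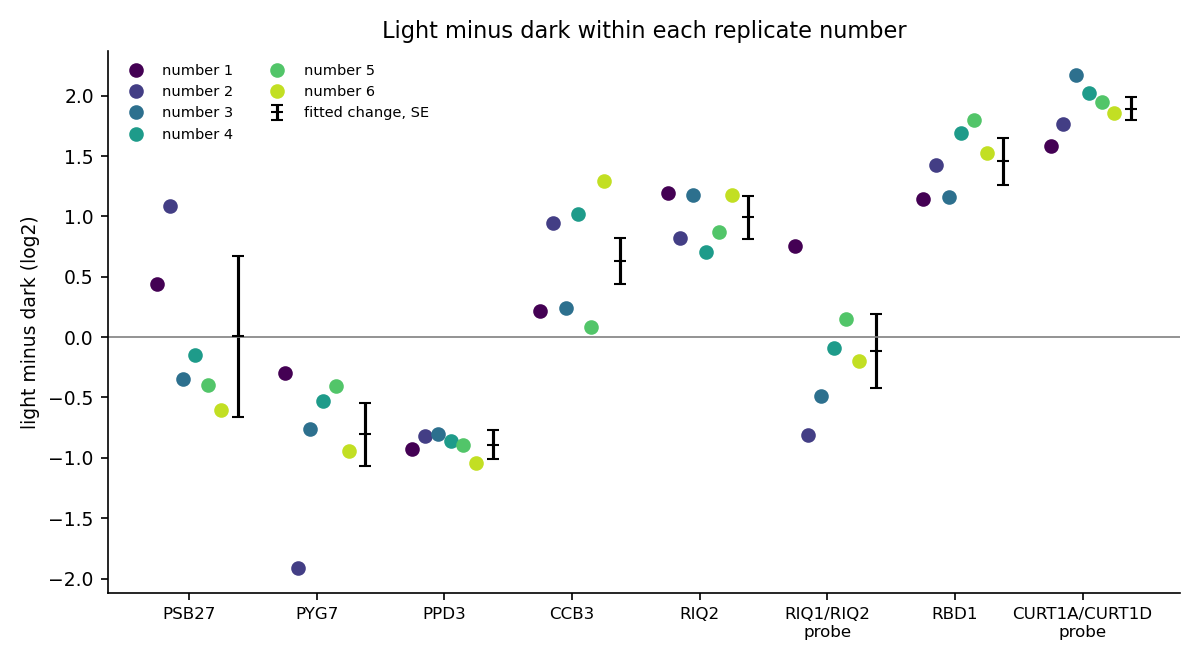
Light minus dark on the log2 scale within each replicate number (coloured points) for the 5 genes and 3 further probes, with the fitted change ± SE over all 12 arrays (black). All 6 points are below 0 for PYG7 and PPD3 and above 0 for CCB3, RIQ2, RBD1 and the CURT1A/CURT1D probe, while PSB27 and the RIQ1/RIQ2 probe have points on both sides.

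CURT1 proteins bend the thylakoid membrane at grana margins. The probe annotated to CURT1A (AT4G01150) and CURT1D (AT4G38100) lay between 0.833 and 1.13 with a median of 0.912 in the dark, and between 3.34 and 3.95 with a median of 3.40 in light. The groups were far apart relative to their spread. The mean went from 0.942 ± 0.104 to 3.49 ± 0.16 (n = 3). The rise was 1.89 on the log2 scale or 3.71-fold. In the main fit, which took the arrays singly, its SE was 0.096 (limma, adjusted p = 3.6e-08). With consecutive numbers averaged the adjusted p was 0.0013 (limma). The ratio was between 2.996 and 4.50 in the 6 replicate numbers. The rise was smaller in the values as deposited, at 1.38 on the log2 scale (limma, adjusted p = 3.8e-06), and it was 2.001 without arrays 1 and 2 (limma, adjusted p = 2e-05). Which of the genes gave the signal is not known from the annotation.

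FZL, a dynamin-like GTPase that affects thylakoid and chloroplast shape, was dim and variable. It lay between 0 and 0.277 with a median of 0.052 in the dark and between 0 and 0.080 with a median of 0.035 in light, and was listed at 0 in 1 array of each group. Its log2 change of -0.93 (SE 0.90) did not pass in limma (adjusted p = 0.44). Its sign was not that of most replicate numbers, as light was higher in 4 of 6 with a median of 0.44. The fitted value ran from -1.53 to -0.45 with 1 array left out, and was -1.62 without arrays 1 and 2 of both groups.

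**Figure D4:**
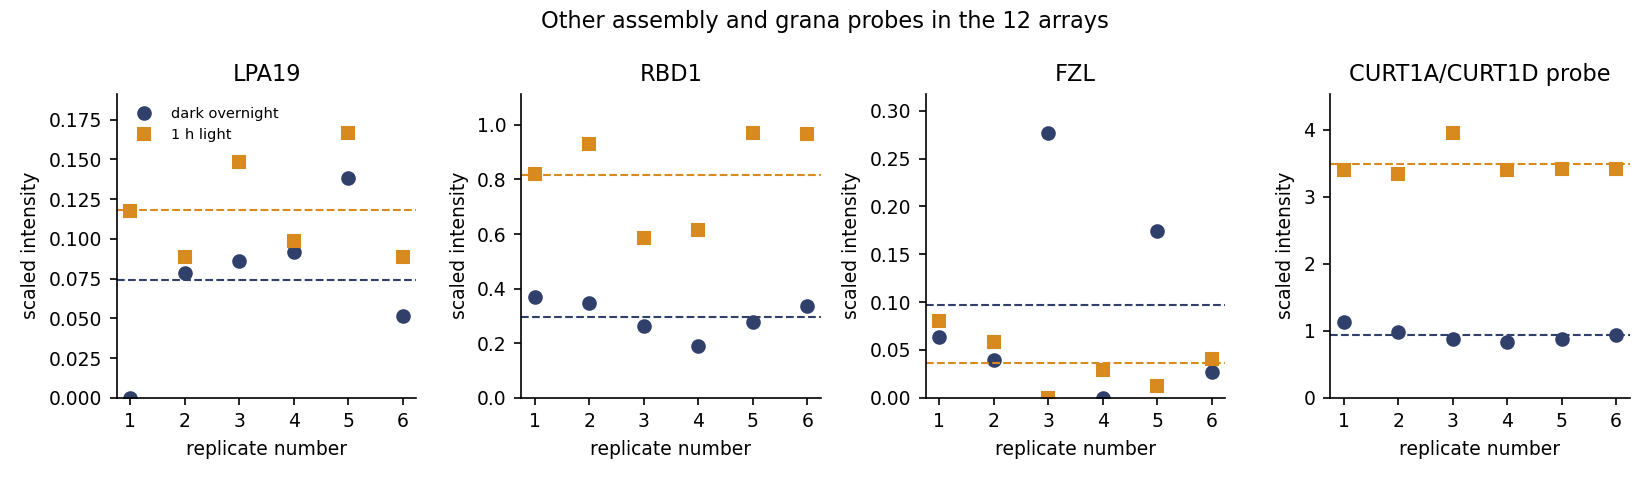
Scaled intensity (linear axis from 0) of the probes of LPA19, RBD1, FZL and of the probe shared by CURT1A and CURT1D, by replicate number, with dark arrays as blue circles, light arrays as orange squares and dashed lines at the means of 6 arrays. The light arrays of RBD1 (0.586 to 0.969) and of the CURT1A/CURT1D probe (3.34 to 3.95) lie above all their dark arrays.

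Of the PsbP-domain family, named for a subunit of the oxygen-evolving complex of photosystem II, PPD3 was the 1 gene of 11 listed with a single-gene probe. Its scaled intensity lay between 11.4 and 16.4 with a median of 12.1 in the dark, and between 6.504 and 7.99 with a median of 6.59 in light. The groups did not overlap. Arrays 5 and 6 were the highest of both groups after normalization. In the deposited values the dark arrays ran from 12.8 to 14.5 and the light arrays from 6.01 to 7.03.

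PPD3 averaged 13.1 ± 2.1 in the dark and 7.004 ± 0.80 in light (n = 3), with a fitted log2 change of -0.89 (SE 0.12). Its light to dark ratio stayed between 0.487 and 0.572 in the 6 replicate numbers, with a median of 0.545. Without arrays 1 and 2 the log2 change was -0.90. It was -1.04 in the values as deposited and -0.67 with arrays centred on the 75th percentile, where the median log2 change of all probes was -0.21 and 0.16.

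Of 97 further loci listed for photosystem, cytochrome b6f and thylakoid assembly, grana and protein targeting, 7 had a single-gene probe and 6 were tested. Of these 6, 3 rose and 1 fell (limma, adjusted p of 0.05), and 2 did not pass, beside 40.4% of all probes passing, 19.9% higher and 20.5% lower. Their median log2 change was 0.97, against -0.011 over all probes tested. This median lies between PSBY, a photosystem II subunit (0.90), and LPA19 (1.04). PSBY was at 0.40 in the values as deposited, and LPA19 at 0.43 without dark array 1. The lists too were chosen with earlier results of these data known, so nothing is read from this share or median. In the assembly, grana and targeting lists alone, RBD1 rose and LPA19 and FZL did not pass. The other 3 tested were photosystem subunits, of which PSAN of photosystem I rose by 1.32 and PSBY of photosystem II by 0.90, and PSBW of photosystem II fell by 1.201 on the log2 scale (SE 0.11, 0.11 and 0.13; limma adjusted p = 1.6e-06, 3.2e-05 and 1.5e-05). The call for PSBY was lost in the values as deposited and that for PSBW with arrays centred on the 75th percentile. The log2 changes of PSAN, PSBY and PSBW were 1.39, 0.91 and -1.24 without arrays 1 and 2. With consecutive numbers averaged their adjusted p-values were 0.0029, 0.01 and 0.0074 (limma). No member of the lists for thylakoid protein targeting or for subunits of cytochrome b6f had a single-gene probe.

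The genes were chosen with the dark and light values known, so correlations over all arrays largely restate that difference. Over the 12 arrays the log2 levels of RIQ2 and CCB3 had a Pearson correlation of 0.636 and those of PYG7 and PPD3 one of 0.60, while PPD3 was opposite to CCB3 (-0.746) and RIQ2 (-0.747). Once group means were taken off, these values were 0.029, -0.178, -0.279 and 0.37. PSB27 was between -0.142 and 0.14 with each of the others over the 12 arrays, and with group means taken off it was at 0.411 with PPD3 and between -0.209 and 0.0953 with the rest. The arrays share their scaling and the difference between groups, so these are descriptions.

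The single-gene probes most like each gene over the 12 arrays were taken by Pearson correlation of log2 levels. For PSB27 they were AT3G51500 (0.869), AT5G19050 (0.838) and AT3G57570 (0.809), and with group means taken off they stood at 0.907, 0.846 and 0.845. AT3G51500 was listed at 0 in 1 array and AT5G19050 in 2. For PYG7 they were AT5G48830 (0.901), AT1G70180 (0.896) and AT5G22340 (0.896), with 0.806, 0.862 and 0.798 after taking off group means.

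For CCB3 the closest were UGT74D1, which glycosylates auxin (0.878), AT2G25870 (0.865) and AT2G38500 (0.801). For RIQ2 they were PRA1.B6 (0.914), AT3G51320 (0.904) and AT1G24040 (0.894). For PPD3 they were AT2G27290 (0.973), AT3G44570 (0.958) and AT5G27560 (0.949). With group means taken off, the 3 for CCB3 stood at 0.734, 0.692 and 0.63, those for RIQ2 at 0.609, 0.694 and 0.578, and those for PPD3 at 0.75, 0.696 and 0.519. All these probes were picked by their value over the 12 arrays. The value with group means taken off was lower for the 3 probes each of PYG7, CCB3, RIQ2 and PPD3, and higher for the 3 of PSB27.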

How the data were processed

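RNA was measured on 12 arrays, grouped and numbered by the sample titles. For each probe and array the authors deposited 1 linear intensity, on a scale ending at 100. The steps before deposit (scanning, background, scaling) are not given in the sources that were used. The values of an array summed to between 2943 and 3683, and 11.7 to 15.7% of them were 0. The genes, lists and tests were chosen with earlier results of these data known.

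The intensities were quantile normalized, raised to a floor of 0.00675 (the 1% quantile of positive intensities) and put on the log2 scale. A probe at the floor in more than 6 arrays was not tested, which left 2966 of 3439. All 5 genes were tested, and none was listed at 0 in any array. The fit of light against dark used limma 3.58.1 (R 4.3.3; lmFit, eBayes, two-sided, Benjamini-Hochberg over all probes tested), after a check of the fit on simulated data. Figures were drawn with matplotlib 3.10.9.

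Genes were named from the platform annotation, which is old, through gene identifiers of the TAIR10.1 gene table (690 of 692 single-gene probes matched). That table gives some genes by locus only, and the names PYG7, RIQ1, RIQ2, PPD3, RBD1, CCS1, CURT1A and CURT1D come from general knowledge. Since no source names the build behind the array, coordinates were left out. Named are the 5 genes, list members on single-gene probes, probes whose genes all belong to 1 list, and the 3 single-gene probes most correlated with each gene; the 2 with a step like that of PSB27 were added on sight of their values.

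Both groups carry replicate numbers 1 to 6. Deviations from the group means correlated at 0.174 to 0.32 between the dark and light arrays of a number over 2966 probes, each highest with its own number in 6 of 6, so the numbers were taken to pair the arrays. This pairing comes from the values, not from the labels. It was used for the differences within replicate numbers and for the replicate block. The main fit, which gave the SEs and the calls, did not use it. Alternatives were the replicate block, 4 other scalings, 2 floors, no filter, the variance model, array weights, means of consecutive numbers, these pairs as a random block, and leaving out arrays or pairs of numbers.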

Additional observations from a re-analysis of the deposited data

Results flagged for a closer look

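Of 26 sets of 6 log2 levels, 4 held an array whose gap to its nearest neighbour took up most of the group's range, beyond Dixon's critical ratio for 6 values. Chance gives this in about 1 set in 20. LPA19 in dark replicate 1, listed at 0, was at the floor of -7.21 against a median of -3.54 in the other dark arrays. The RIQ1/RIQ2 probe in light replicate 2 was at -2.78 against -1.24. The CURT1A/CURT1D probe in light replicate 3 was at 1.98 against 1.76. For PSAN the array was dark replicate 5, with 2.27 beside a median of 1.86. None of the 5 genes had such an array in either group. The ratio looks at 1 array at each end, so it could not flag the low arrays 1 and 2 of PSB27, which lie together.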

How the results depend on the processing

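The directions of RIQ2, PPD3, PYG7 and CCB3 held under all 27 other settings, with log2 changes of 0.83 or more, -1.04 to -0.67, -1.196 to -0.58 and 0.34 to 1.007. RIQ2 and PPD3 also stayed past the threshold in all 27. PYG7 did not pass with the random block for consecutive numbers (-0.81), without numbers 3 and 4 (-0.89) or 5 and 6 (-0.87), or when dark array 1, dark array 3 or light array 6 was left out. CCB3 did not pass with the variance trend (0.63), with the random block (0.63), or without numbers 1 and 2 (0.66) or 3 and 4 (0.63). The cause was not tested, though leaving out numbers leaves fewer arrays. The number of the 5 genes past the threshold was 4, beside 1198 of 2966 probes. It was 2 with the random block (beside 1028 probes) and without numbers 3 and 4 (893). It was 3 with the variance trend (1229) and without numbers 5 and 6 (863). With 1 array left out it was 3 to 4, beside 1099 to 1173 probes. Without numbers 1 and 2 it was 4, beside 1011 probes, with PSB27 past the threshold as lower and CCB3 not.

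PSB27 changed sign for the values as deposited (-0.43), for arrays centred on the median (-0.31) or the 75th percentile (-0.058), with array weights (-0.0021), without numbers 1 and 2 (-0.37) and within numbers 3 and 4 (-0.25) or 5 and 6 (-0.50), and it was 0.76 within numbers 1 and 2. With 1 array left out, log2 changes ran from -0.44 to 0.24 for PSB27, -0.94 to -0.58 for PYG7, 0.50 to 0.74 for CCB3, 0.88 to 1.07 for RIQ2, -0.93 to -0.82 for PPD3 and -0.24 to 0.15 for the RIQ1/RIQ2 probe.

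With the replicate number as a block 1314 probes passed, against 1198, and the counts for the 5 genes (4) and for the other listed genes (4) did not change. The split of calls was 589 higher and 609 lower (49.2% higher), 423 and 879 as deposited (32.5%), 528 and 821 with median centring (39.1%), and 781 and 544 with 75th percentile centring (58.9%), which turned the balance. The call for PSBY was lost as deposited (log2 change 0.40, limma adjusted p = 0.063) and that for PSBW with 75th percentile centring (-0.40, 0.066). Probes near the floor, such as LPA19, FZL and CCS1, are limited by their signal. CCB3 was never listed at 0, but its log2 change went from 0.63 to 0.34 with the floor at the 25% quantile. The size of its change thus depended on how low values were handled.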
